A study of Mus musculus with 547 samples.

Results

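The genes of the cytosolic ribosomal proteins, the proteins that build the ribosomes of the cytoplasm, were followed through mouse fetal liver development. Members were taken by symbol, as rows named Rps or Rpl with a number and at most a short suffix, and Rpsa, Rplp0, Rplp1 and Rplp2. This rule found 79 of 40824 genes in the count tables. By their names, 33 belong to the small subunit, 43 to the large subunit and 3 to the stalk of the large subunit. The 33 include Rps3a2 and Rps3a3, which are annotated as processed pseudogenes and stay in all counts below. The rule uses no measured value, but it was set with earlier results of these data known. All 79 passed the filter on low counts in every fit.

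A ribosome reads messenger RNA on its small subunit and joins amino acids on its large subunit, and each subunit holds its own fixed set of proteins around ribosomal RNA. Many ribosomal protein mRNAs of vertebrates start with a C followed by a run of pyrimidines, the 5' terminal oligopyrimidine tract, through which the mTOR kinase pathway and the protein Larp1 regulate their translation. In the fetal liver, hepatoblasts divide and then become hepatocytes, which export large amounts of plasma proteins, or cholangiocytes, which line bile ducts.

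RNA was measured in livers of mouse embryos of unstated strain. Bulk libraries of poly(A) RNA came from pools of sorted cells that carry DLK (DLK+), a surface protein of hepatoblasts and fetal hepatocytes, with 2 libraries at each day from E10.5 to E18.5, 18 in all. Smart-seq2 libraries came from 447 single cells taken directly from embryos at E10.5 to E15.5 and E17.5. These cells were sorted either for the epithelial surface protein EpCAM (EpCAM+) or for DLK, and the labels call each a putative cholangiocyte or a putative hepatoblast/hepatocyte. The remaining 82 cells were from explants, lobes of E12.5 livers kept for 2 days in medium with EGF and serum. Explants received 0.5 µM TPPB, which activates protein kinase C, both TPPB and U0126, 10 µM U0126, which blocks the MAPK pathway kinases MEK1/2, or the DMSO carrier alone as control. The cultures hold the whole lobe, so a change in the sorted cells can also pass through other cells of the lobe. Bulk libraries held 14385574 to 22791119 reads and single cells 763480 to 2111839. Cells of 1 group with the same set number in their titles were added up, and these set sums, 42 from embryos and 12 from explants, served as replicates. What a set was is not stated in the labels (litter, embryo or plate), and p-values therefore cover the spread among sets or libraries alone, which may be technical.

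In bulk libraries the 5 hepatoblast and hepatocyte markers (Dlk1, Afp, Alb, Hnf4a and Ttr) were all detected and took 2.75 to 22.5% of the reads. Markers of red cells took at most 0.0206%, of other blood cells at most 0.0499%, of mesenchyme at most 0.115%, of endothelium at most 0.00797% and of cholangiocytes at most 0.0126%. In E17.5 cells all 6 cholangiocyte markers had reads in the putative cholangiocytes, with a summed level of 0.828 to 1.13%, against 0.000618 to 0.00207% in DLK+ cells, where Krt19 and Cldn4 were at 0.

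The start sites of 57 members were found in the RefSeq promoter table (GRCm38.p6). A run of at least 10 pyrimidines within 15 bases of the start was present in 20 of them, or 35.1%, against 8.72% of 26968 other genes. The motif CTTTCC, read on the gene's own strand from 10 bases before to 15 after the start, was present in 14% of these members and 1.00% of other genes, and the median longest run was 7 bases in members and 5 in other genes. The sequences below start 25 bases before the annotated start and end 15 bases into the transcript, are written 5' to 3' on the gene's strand, and carry in capitals the longest pyrimidine run that reaches within 15 bases of the start. Runs farther upstream were not counted. The first 5 are members with large changes that hold long runs, and the last 2, both on the X chromosome, are members with short runs and their highest stage mean at E17.5. They were chosen after their values were seen, and short runs do not mark that pattern: of the 14 members highest at E17.5, Rpl4 has a run of 14 bases and Rps6 one of 10.
Rps10 (chr17:27635230-27635269, minus strand): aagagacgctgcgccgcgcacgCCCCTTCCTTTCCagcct
Rps18 (chr17:33955651-33955690, minus strand): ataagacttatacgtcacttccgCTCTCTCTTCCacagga
Rpl28 (chr7:4792940-4792979, plus strand): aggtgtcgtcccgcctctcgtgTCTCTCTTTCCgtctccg
Rpl38 (chr11:114668555-114668594, plus strand): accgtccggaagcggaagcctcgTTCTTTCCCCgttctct
Rplp2 (chr7:141447626-141447665, plus strand): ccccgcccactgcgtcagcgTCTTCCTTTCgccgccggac
Rpl10 (chrX:74270791-74270830, plus strand): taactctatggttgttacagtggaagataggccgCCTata
Rps4x (chrX:102189377-102189416, minus strand): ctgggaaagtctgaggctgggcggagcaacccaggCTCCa
The marked run of Rps10 held 13 bases and those of Rps18 and Rpl28 held 11 each, while that of Rps4x held 4 and that of Rpl10 held 3. The annotated start need not be the start used in these cells, and these letters are a description only.

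Ribosomal protein genes took a large but shrinking share of the bulk libraries. The summed share of reads was 5.42 ± 0.160% at E10.5, 5.52 ± 0.225% at E11.5, 6.26 ± 0.701% at E12.5, 6.88 ± 0.830% at E13.5, 4.64 ± 0.928% at E14.5, 3.76 ± 0.199% at E15.5 and 2.93 ± 0.114% at E16.5 (SD, n = 2 each). The last stages had 3.25 ± 0.153% for E17.5 and, lowest of all, 2.63 ± 0.305% for E18.5. Every library up to E13.5 lay above 5.2%, and every library from E15.5 on lay below 4%. The libraries of a stage differed most in the middle of the series, with 5.77 and 6.76% at E12.5, 7.46 and 6.29% at E13.5, and 5.29 and 3.98% at E14.5. In sorted bulk cells, fewer cells of a type and less RNA per cell cannot be told apart.

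The share also depends on what else fills the library. Genes of plasma proteins and cell type markers took 3.48% of the reads at E10.5 and 31.0% at E18.5, on average over libraries. With these genes left out, the members' mean share was 5.61% at E10.5, 7.85% at E13.5, 5.43% at E14.5 and 3.82% at E18.5. With TMM scaling, which sets the middle of all genes level between libraries, the summed level was 35897 and 33330 normalised CPM at E10.5, 61017 and 58453 at E13.5, 42013 and 37525 at E14.5, and 44014 and 46124 at E18.5. TMM factors ran from 0.55 in an E18.5 library to 1.59 in an E10.5 library. The order of E18.5 and E10.5 therefore reversed with the scale, at 0.486 times the share and 1.30 times the TMM level, while E14.5 stayed below E13.5 on each scale.

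**Figure D1:**
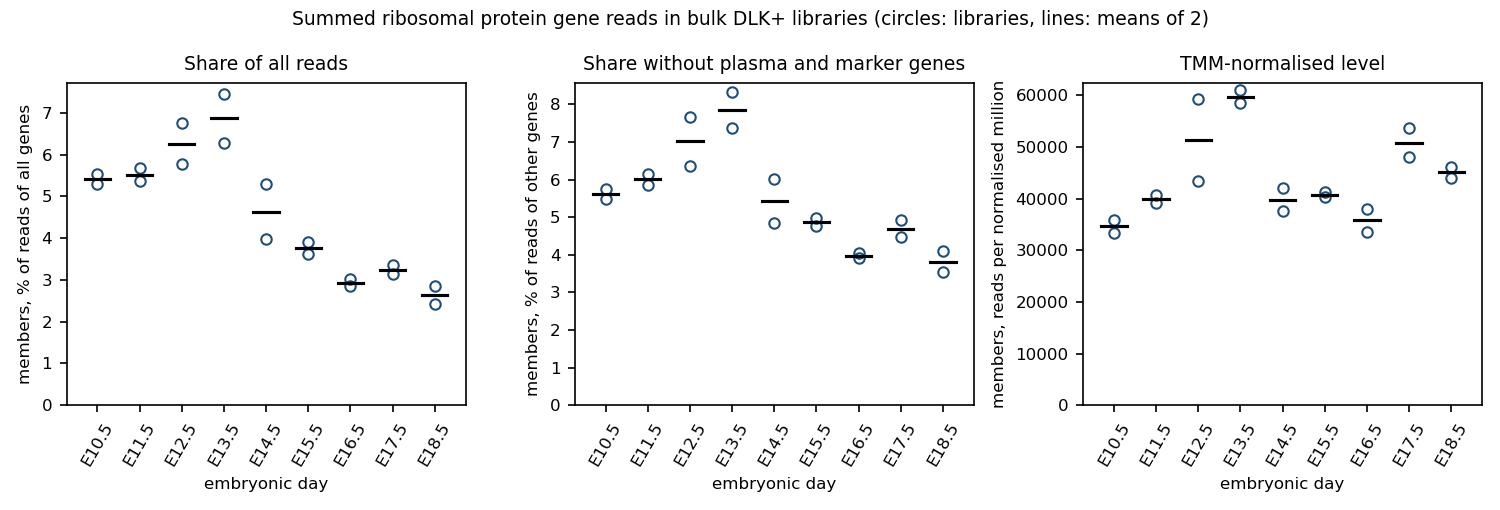
Summed reads of the 79 ribosomal protein genes in the 18 bulk DLK+ libraries by embryonic day, as % of reads of all genes (left), as % of reads without plasma protein and marker genes (middle) and as summed TMM-normalised CPM (right). Circles are libraries and lines are means of 2. The E13.5 mean is highest in all panels, with a library of E12.5 within the E13.5 range. E18.5 lies below E10.5 in the left and middle panels and above it in the right one.

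The proportions between subunits moved little. Reads of small subunit genes were 0.696 to 0.738 times those of large subunit and stalk genes over the 18 libraries, in which the total share ranged from 2.42 to 7.46%. Per length, the highest members were the stalk protein Rplp1 with a mean of 4208 TPM over stages, Rps12 with 4005 TPM, Rpl23a with 2599 TPM, Rpl32 with 2454 TPM and Rps4x with 2305 TPM, and the median member had 1168 TPM. Rpl24 was lowest at 4.01 TPM, and 47.0% of its exon bases are shared on the same strand with Gm28037, so its reads cannot be assigned to it alone. Next came Rps15a with 167 TPM, Rps3a2 with 236 TPM, Rpl35a with 267 TPM and Rps3a3 with 296 TPM. Rpl23a shares 59.7% of its exon bases with a gene on the other strand. The kit marks strand, but the setting used for counting is not given in the sources used here. Reads of such pairs therefore cannot be told apart. Rpl23a averaged 1.61% of member reads in bulk. In explant set sums it had 9.18 to 19.1 normalised CPM, of 26413 to 38166 for all members. Rpl24 went the other way, with 0.00283% of member reads in bulk and 40.8 to 75.1 normalised CPM in explants. Why these 2 rows differ between bulk and single cells was not tested.

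Most members had their highest mean at the same stage on the TMM scale. The highest stage mean of 57 members was that of E13.5 and of 14 members that of E17.5. The lowest was E10.5 for 46 members and E16.5 for 24. The median member ranged over 0.93 log2 units between stage means, and 29 ranged over at least 1. The widest ranges were those of Rpl29 at 1.67, Rpl36 at 1.62, Rps28 at 1.49, Rps12 at 1.45 and Rpl28 at 1.43. The narrowest were those of Rpl15 at 0.45, Rpl4 at 0.47, Rps6, the substrate of S6 kinase, at 0.54, Rpl22 at 0.54 and Rpl7 at 0.55. The profile of a single member correlated with that of the summed members with a median r of 0.917 over 9 stage means. For 45 of the 79 members r was above 0.9. The sum holds the member itself and shares its libraries and scaling, so part of this likeness is built in. Rpl5, which binds 5S ribosomal RNA together with Rpl11, departed most with r = 0.15. It had its lowest stage mean at E13.5, where most members were highest. These ranges and profiles are not corrected for GC content, with which the E13.5 libraries carried a trend, described below. The GC content was 42.7% in Rpl5. In the members with the widest ranges it was, in the order above, 60.5, 60.8, 49.1, 45.2 and 52.6%.

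Outside the rule, the 5 genes with the most similar profile were Gnb2l1 with r = 0.979, Rps27rt with 0.966, Eif3h with 0.963, Phb2 with 0.949 and Fau with 0.928, out of 1487 genes that averaged 100 CPM or more. Gnb2l1 codes for RACK1, a scaffold on the small subunit, Fau codes for a small subunit protein fused to a ubiquitin-like domain, Eif3h is a subunit of initiation factor 3, and Phb2 is a prohibitin of mitochondria. These values describe 9 points that share libraries and scaling.

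**Figure D2:**
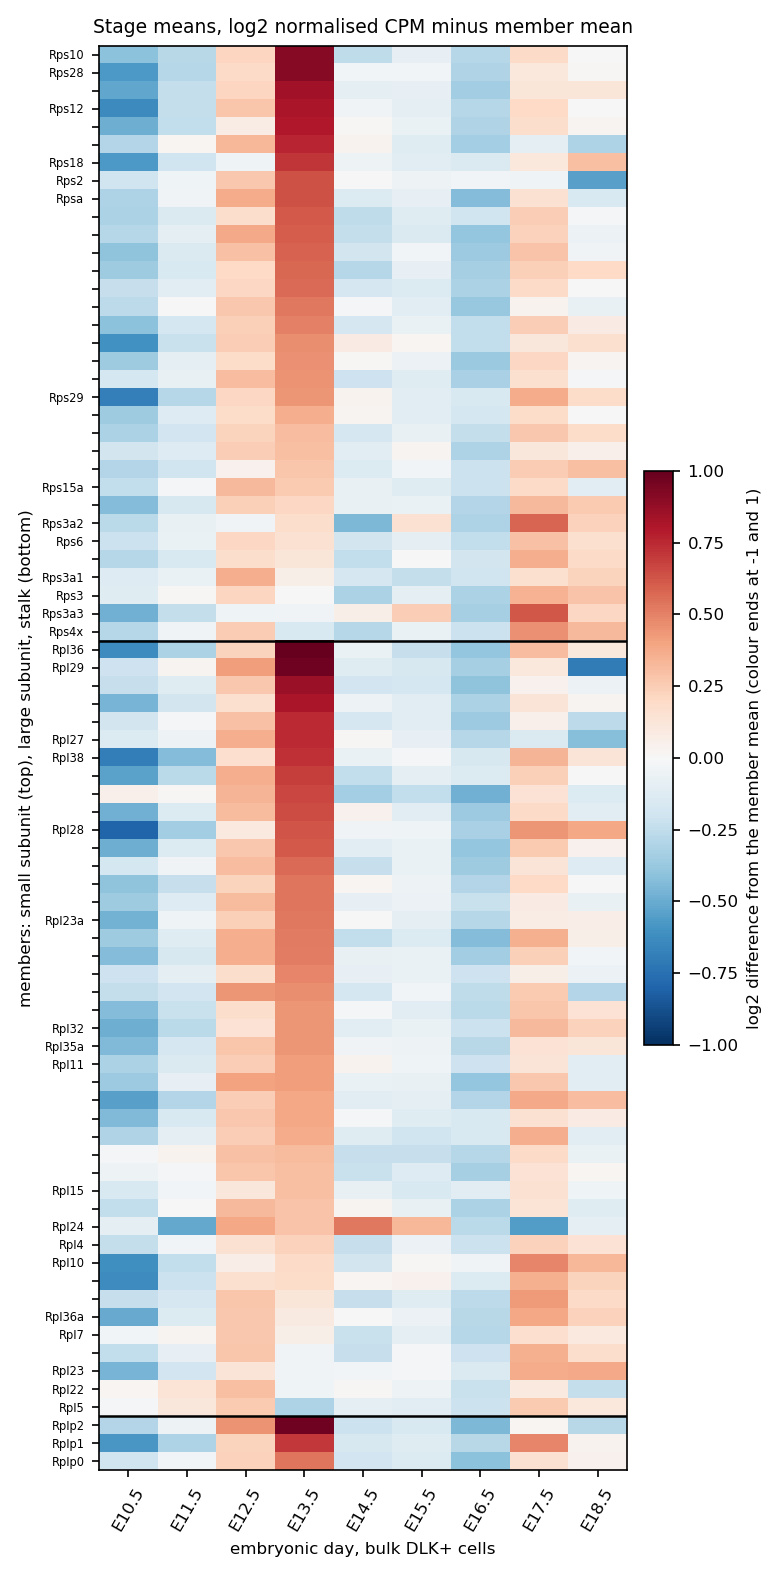
Stage means of each of the 79 members in bulk DLK+ cells, as log2 TMM-normalised CPM minus the member's mean over stages, for small subunit, large subunit and stalk genes from top to bottom and embryonic day from left to right, with labels for members described in the text. The E13.5 column is highest for 57 members, and Rpl5, Rps4x and Rpl10 are among the exceptions.

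At E18.5 against E10.5, 34 members were higher on the TMM scale, while their summed share of reads was lower. By edgeR's quasi-likelihood test 34 of 79 members rose and 0 fell, where 32.6% of all 15275 genes tested rose and 32.5% fell. The median member changed by 0.40 log2 units, against -0.02 over all genes, and 69 estimates were above 0. With library totals alone, without TMM factors, 0 members rose and 75 fell, with a median of -1.04, while the median of all genes moved to -1.45. The called members comprised 16 of 33 small subunit, 17 of 43 large subunit and 1 of 3 stalk genes.

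Rpl28, a large subunit protein, had 901 and 866.2 normalised CPM at E18.5, against 402.1 and 375.3 at E10.5. It rose by 1.18 ± 0.21 log2 units (SE; adjusted p = 0.000147, edgeR), the largest rise among members, and both later libraries lay above both earlier ones. Rpl10, which joins the large subunit late in its assembly, had 980.7 and 919.9 normalised CPM at E18.5, against 540.6 and 446.7 at E10.5, a rise of 0.94 ± 0.16 (adjusted p = 0.000105, edgeR). Rps18, in the head of the small subunit, had 773.4 and 540.7 at E18.5, against 384.3 and 332.2 at E10.5. Its rise of 0.88 ± 0.21 (adjusted p = 0.00217, edgeR) and that of Rps29, a small zinc-binding protein of the small subunit, by 0.86 ± 0.20 (adjusted p = 0.00182, edgeR) also stood without overlap between stages. With library totals alone all 4 estimates were below 0, and Rpl28 then stood at -0.24. The count fell to 6 without the second E10.5 library, to 14 without the first and to 21, 20 of them higher, without the second E18.5 library.

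Genes that build ribosomes moved the other way in the same libraries. Of 30 ribosome biogenesis genes 28 fell and 1 rose at E18.5 against E10.5, with a median of -1.41. Rrp12, which acts in export and maturation of small subunit precursors, fell by 2.28 log2 units, Dkc1, the pseudouridine synthase dyskerin, by 2.30, Fbl, the methyltransferase fibrillarin, by 1.89, and Ncl, nucleolin, by 1.83. Of 20 cell cycle genes all 20 fell, with a median of -3.48. In the Myc family 3 of 7 fell, Mycn by 3.25, and 2 rose, Mxd4, a Max partner that opposes Myc, by 1.64.

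Other lists were mixed at these stages. Of 15 elongation factors and other genes with known terminal oligopyrimidine mRNAs, 5 rose and 6 fell, with Tpt1 at 1.43, Eef1b2 at 0.65, Eef1g at -0.67 and Hnrnpa1 at -1.81. Of 20 initiation factors and genes of mTOR control, 3 rose and 8 fell, with Eif4ebp1, which binds and blocks the cap-binding protein eIF4E, at 1.72 and Eif4e itself at -1.13. Mitochondrial ribosomal protein genes rose in 19 and fell in 8 of 75 cases, with a median of 0.24, close to the 32.6% and 32.5% of all genes or below them. Of 11 other ribosome genes and paralogs 4 rose and 1 fell, with Fau at 0.84, Rpl22l1, the paralog of Rpl22, at 0.75, Rps27l at 0.53 and Rpl7l1 at -0.56. Markers of mesenchyme took 0.000249 and 0.00494% at E18.5, against 0.0839 to 0.115% at E10.5, with all 6 detected at both stages. Their part in these results was not tested.

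E13.5 had the highest mean level, but the second E12.5 library lay within its range. That library had 59320 summed normalised CPM, between the 61017 and 58453 of the E13.5 libraries. Against E12.5, 8 members rose and 1 fell, where 5.07% of all genes rose and 9.43% fell, and the median member changed by 0.22 against 0.04 over all genes. Rps10, a small subunit protein near the mRNA entry, had 810.4 and 788.1 normalised CPM at E13.5, against 445.6 and 537.4 at E12.5. It rose by 0.70 ± 0.15 (adjusted p = 0.00903, edgeR's quasi-likelihood test). Rps18 had 881 and 863.2 at E13.5, against 454 and 579.6 at E12.5, a rise of 0.75 ± 0.21 (adjusted p = 0.0288, edgeR). Rpl36, a large subunit protein with 4 near-identical genes elsewhere in the genome, rose by 0.77 ± 0.22 (adjusted p = 0.0335, edgeR). The member that fell was Rpl5, with 547.3 and 576 at E13.5, against 730.3 and 934 at E12.5, a change of -0.57 ± 0.17 (adjusted p = 0.0366, edgeR). These calls rest on single libraries, with all rises lost and 1 fall left without the first E12.5 library, 20 rises and no fall without the second, and 2 rises without either E13.5 library. With each library's GC trend removed none of these 4 was called: Rps10 stood at 0.21 (adjusted p = 0.526, edgeR), Rps18 at 0.63 (adjusted p = 0.143), Rpl36 at 0.28 (adjusted p = 0.505) and Rpl5 at -0.04 (adjusted p = 0.96). A fit of these 4 libraries alone, whose spread is not shared with other stages, called 0 members and 11 of 13766 genes, with the members' median at 0.19.

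Against E13.5, E14.5 libraries held less of most members. At E14.5, 41 of 79 members fell and 0 rose, where 1749 of 15275 genes (11%) fell and 15.4% rose, and the median member changed by -0.55 against 0.02 over all genes. Among them were 17 of 33 small subunit, 21 of 43 large subunit and all 3 stalk genes. The stalk protein Rplp2, which with Rplp1 and Rplp0 recruits elongation factors, had 456.6 and 391.8 normalised CPM at E14.5, against 956.7 and 975.4 at E13.5. It fell by 1.19 ± 0.19 log2 units (adjusted p = 0.000982, edgeR). Rps10 had 368.9 and 343.2 at E14.5, against 810.4 and 788.1 at E13.5, and fell by 1.17 ± 0.16 (adjusted p = 0.000475, edgeR). Both libraries of E14.5 lay below 0.5 times the lower E13.5 library for these members. The direction held with library totals alone, where 38 fell and the median was -0.53. Without the first E13.5 library 27 members were called, and without the second E14.5 library 17. A fit of these 4 libraries alone called 0 of 13771 genes, members included, with the members' median still at -0.55. With GC trends removed Rps10 stood at -0.46 and was not called (adjusted p = 0.0716, edgeR), while Rplp2 stood at -0.78 (adjusted p = 0.0166, edgeR).

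Neighbouring lists moved in part with them. At E14.5 against E13.5, 29 of 75 mitochondrial ribosomal protein genes fell and 3 rose, with a median of -0.33, and 12 of 30 biogenesis genes fell and 2 rose, with Bop1, a factor of large subunit assembly, at -1.14. Of 11 other ribosome genes and paralogs 6 fell and 1 rose, with Fau at -0.99 and Gnb2l1 at -0.64. Of the initiation factors and mTOR genes 8 of 20 rose and 5 fell.

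With E13.5 skipped, no member was called between E14.5 and E12.5, where 3.57% of all genes rose and 1.58% fell by edgeR. At an unadjusted p below 0.05, 33 members were lower, 77 of 79 estimates were below 0, and the median was -0.36. Rplp2 had 456.6 and 391.8 normalised CPM at E14.5, against 532.5 and 807.1 at E12.5, a change of -0.66 ± 0.19 (adjusted p = 0.0548, edgeR's quasi-likelihood test). DESeq2 called 22 members lower, and leaving out the first E12.5 library gave 30 calls in edgeR.

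The E13.5 libraries also carried a trend with GC content over all genes. The slope of a library's deviation from the mean of all libraries was 0.53 and 0.60 log2 units per 10 percentage points of GC in the E13.5 libraries, against -0.23 to 0.22 in the other 16. The slope of 0.22 was that of the second E12.5 library. Members had a GC content of 39.1 to 62.4% with a median of 50.9%, against 49.8% for 15110 other genes tested, and their own slope at E13.5 was 0.30 and 0.23. Median changes at E13.5 against E12.5 were 0.07, 0.25 and 0.31 in the 27, 26 and 26 members of lowest, middle and highest GC, against -0.34, 0.13 and 0.37 in other genes of those GC ranges.

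For E14.5 against E13.5 the same 3 groups of members changed by -0.37, -0.66 and -0.68, and other genes of those ranges by 0.48, -0.08 and -0.47. Members of the lowest GC range therefore went down between stages at which other genes of that range went up. With each library's GC trend removed, the members' medians were -0.69, -0.47 and -0.24, with 13, 6 and 1 members called lower, 20 in all. At E13.5 against E12.5 the same correction gave 0.33, 0.16 and -0.07, with 3 members called. Across the 79 members the change correlated with GC with r = 0.37 for E13.5 against E12.5 and r = -0.42 for E14.5 against E13.5, both from comparisons that share the E13.5 libraries.

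**Figure D3:**
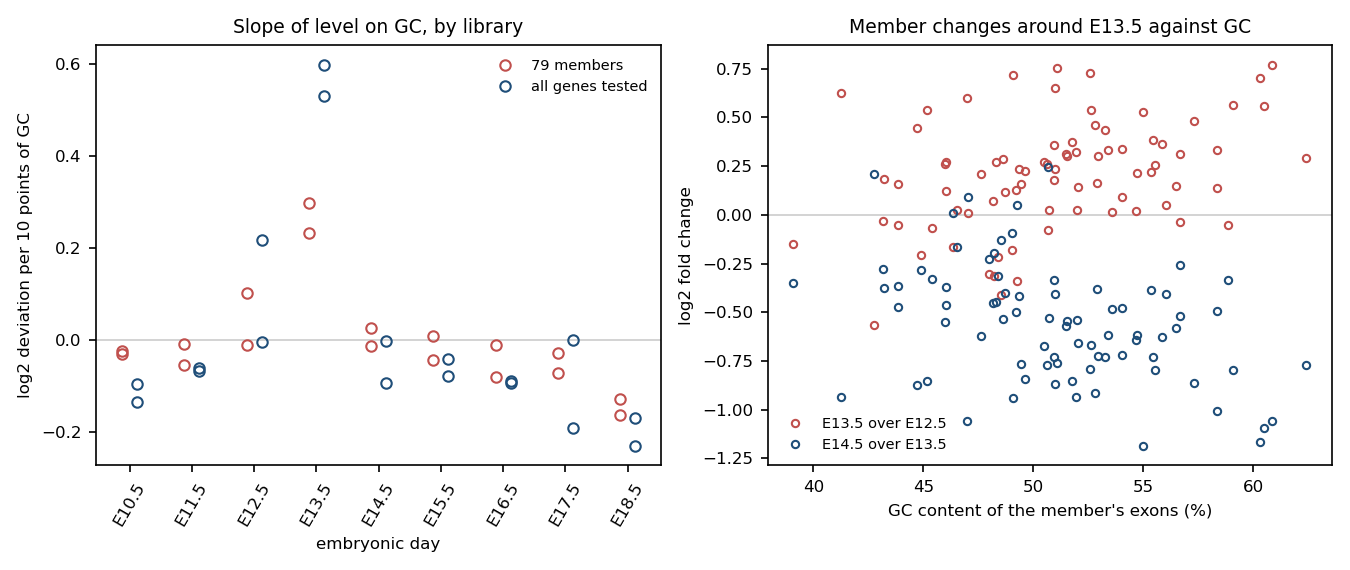
Left, slope of each bulk library's log2 deviation from the mean of all libraries on GC content (log2 units per 10 points), for the 79 members and for all genes tested, with 1 circle per library; the E13.5 libraries stand at 0.30 and 0.23 for members and at 0.53 and 0.60 for all genes. Right, log2 fold change of each member against the GC content of its exons for E13.5 over E12.5 and for E14.5 over E13.5, where r is 0.37 and -0.42.

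From E14.5 to E18.5 the summed share ended lower and the summed TMM level ended higher. In between, that level was 41299 and 40254 normalised CPM at E15.5, 37990 and 33578 at E16.5, and 53590 and 48052 at E17.5. Both level and share were higher at E17.5 than at E16.5. At E18.5 against E14.5, 8 members rose and 0 fell by edgeR's quasi-likelihood test, where 21.1% of all genes rose and 22.6% fell, and the median was 0.16 against -0.07 over all genes; with library totals alone 76 fell, with a median of -0.83 against -1.07. Rps4x, a small subunit protein coded on the X chromosome, had 1269 and 1383 normalised CPM at E18.5, against 830.9 and 907.8 at E14.5, and rose by 0.61 ± 0.18 (adjusted p = 0.0135, edgeR). Rps3, at the mRNA entry channel, had 1020 and 1071 at E18.5, against 659.5 and 718.7 at E14.5, a rise of 0.60 ± 0.18 (adjusted p = 0.0136, edgeR). Rpl10 rose by 0.51 ± 0.16 (adjusted p = 0.0162, edgeR). All 3 estimates were below 0 with library totals alone, and the count of 8 fell to 0 without the first E14.5 library, to 4 without the first E18.5 library, all higher, to 2 higher and 2 lower without the second E14.5 library, and to 1 higher and 2 lower without the second E18.5 library. A fit of these 4 libraries alone called 4884 of 13572 genes but 0 members, with the members' median at 0.16. In the same comparison 24 of 30 biogenesis genes and all 20 cell cycle genes fell.

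In single cells the mean summed share was lower at each later stage among DLK+ cells, and higher at E17.5 than at E14.5 among cholangiocytes. DLK+ set sums averaged 4.59 ± 0.121% at E10.5 (SD, n = 3), 4.00 ± 0.270% at E11.5 (n = 3), 3.82 ± 0.435% at E12.5 (n = 2), 3.57 ± 0.171% at E13.5 (n = 3), 2.61 ± 0.183% at E14.5 (n = 3), 2.17 ± 0.121% at E15.5 (n = 3) and 1.88 ± 0.163% at E17.5 (n = 4). No rise at E13.5 appeared in these cells. Single cells spread more at late stages, from 4.05 to 5.19% over 54 cells at E10.5, with a coefficient of variation of 6.16%, and from 1.32 to 3.19% over 35 cells at E17.5, with 22.8%.

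Putative cholangiocytes had 2.22 ± 0.223% at E14.5, 2.43 ± 0.295% at E15.5 and 2.82 ± 0.299% at E17.5 (SD, n = 3 each). At E17.5 the set sums were 2.77, 3.14 and 2.54% in cholangiocytes, against 1.93, 1.78, 2.09 and 1.73% in DLK+ cells, with no overlap. At E14.5 they were 2.06, 2.13 and 2.47% in cholangiocytes, against 2.82, 2.47 and 2.53% in DLK+ cells, so the cholangiocyte mean was the lower one there and the ranges overlapped, with the highest cholangiocyte set just above the lowest DLK+ set. Plasma protein and marker genes took 6.72 to 9.67% of the reads in E17.5 cholangiocytes and 29.6 to 31.9% in E17.5 DLK+ cells. EpCAM+ cells typed as hepatoblasts had mean shares of 3.62, 3.31, 3.20 and 2.40% at E11.5, E12.5, E13.5 and E14.5.

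**Figure D4:**
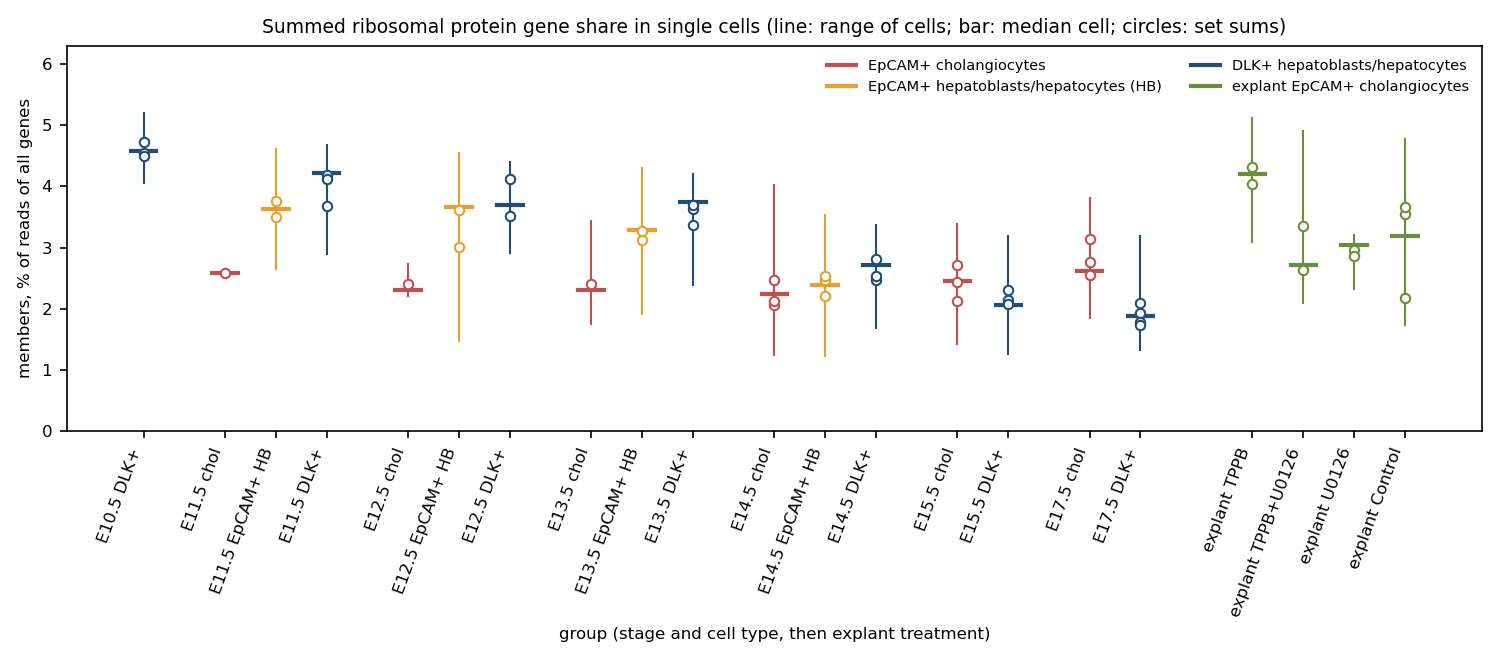
Summed share of the 79 members in single cells, in % of reads of all genes, by stage and cell type and by explant treatment. Vertical lines span all cells of a group, bars mark the median cell and open circles the set sums; at E17.5 all 3 cholangiocyte sums lie above all 4 DLK+ sums, while DLK+ sums are highest at E10.5.

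Among DLK+ cells, 19 of 79 members fell and 1 rose at E17.5 against E10.5 by edgeR's quasi-likelihood test, where 15.2% of all 16838 genes fell and 14.2% rose. The median member changed by -0.15, near the -0.13 over all genes, and with library totals alone 78 fell, with a median of -1.29 against -1.27. The members that fell were 4 of 33 small subunit, 13 of 43 large subunit and 2 of 3 stalk genes. Without the second E10.5 set 11 members were called. Scaled to the ERCC spike-in RNA, 3 members and 3507 of all genes were called, while the median member changed by -0.39 and all genes by -0.36.

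Rpl27, of the large subunit, had 212.4, 187.8, 218.6 and 185.3 at E17.5, against 335.3, 359.8 and 310.7 at E10.5, and fell by 0.74 ± 0.12 (adjusted p = 6.15e-06, edgeR), with every E17.5 set below every E10.5 set. Rpl22, a large subunit protein with the paralog Rpl22l1, fell by 0.66 ± 0.15 (adjusted p = 0.00112, edgeR). The member that rose was Rpl10, with 668.7, 652.8, 708.4 and 683.3 at E17.5, against 475.6, 536.7 and 446.5 at E10.5, a change of 0.48 ± 0.12 (adjusted p = 0.0024, edgeR), and it was also among the largest rises in bulk cells. With library totals alone its estimate was -0.67.

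Most genes of ribosome assembly fell in the same cells. Of 30 biogenesis genes 26 fell, with a median of -1.16, among them Npm1, nucleophosmin, by 1.61 log2 units, Ncl by 1.60 and Fbl by 1.46. Of 15 elongation factors and other oligopyrimidine genes 10 fell, Hnrnpa1 by 1.88, and of 20 cell cycle genes 17 fell. Mycn fell by 4.72, and Eif4ebp1 rose by 1.35 while Eif4e fell by 1.17. Of 12 other ribosome genes and paralogs 1 fell, Rpl7l1, by 0.90.

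Putative cholangiocytes of E14.5 to E17.5 held less of nearly every member than DLK+ cells of the same days, relative to the middle of all genes. By edgeR's quasi-likelihood test 67 of 79 members were lower and 0 higher, where 16% of all genes were lower and 19% higher, and the median member changed by -0.40 against 0.16 over all genes. With library totals alone 24 were higher and 3 lower, with a median of 0.15 against 0.69 over all genes, so the sign of the family depends on the scale. On that scale too the members lay below the middle of all genes. Lower members comprised 27 of 33 small subunit, 37 of 43 large subunit and all 3 stalk genes.

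Rplp1 had 361.9, 301.9 and 320.2 normalised CPM in E17.5 cholangiocytes, against 668.2, 678.2, 579.2 and 559.7 in E17.5 DLK+ cells. At E14.5 it had 166.5, 212.7 and 218.1 in cholangiocytes, against 427.2, 366.2 and 401.5 in DLK+ cells. Over the 3 days its difference was -0.86 ± 0.11 (adjusted p = 1.57e-07, edgeR), with no overlap on any of these days. Rpl10 had 403.1, 369.6 and 395.2 in E17.5 cholangiocytes, against 668.7, 652.8, 708.4 and 683.3 in DLK+ cells, a difference of -0.71 ± 0.07 (adjusted p = 1.69e-09, edgeR). Rpl38, a large subunit protein whose loss in mice alters the axial skeleton, differed by -0.68 ± 0.09 (adjusted p = 5.21e-07, edgeR). Groups did not overlap for these members at E17.5.

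Mitochondrial ribosomal protein genes were lower in cholangiocytes in 48 of 75 cases and higher in 0, with a median of -0.46 and Mrpl12 at -1.35. Of 12 other ribosome genes and paralogs 7 were lower, with Rpl36al, a paralog of Rpl36a, at -1.08 and Gnb2l1 at -0.63. Of the biogenesis genes 10 of 30 were lower, with Gnl3, nucleostemin, at -0.93. Among initiation factors and mTOR genes 9 of 20 were lower and 2 higher, with Eif4ebp1 at -1.35, Eif5a at -0.80 and Pdcd4, which binds the helicase eIF4A, at 1.71. Mycn was higher by 2.70 log2 units, and 3 of 20 cell cycle genes were higher, a share below the 19% of all genes. Cholangiocyte sums had a higher ratio of small subunit to large subunit and stalk reads, at 0.80 ± 0.020 (SD, n = 3) at E17.5, against 0.753 ± 0.0073 (n = 4) in DLK+ cells.

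Within cholangiocytes, 15 of 79 members rose and 0 fell at E17.5 against E14.5 by edgeR's quasi-likelihood test, where 1.16% of all genes rose and 2.13% fell, and the median was 0.24 against 0 over all genes. This comparison and that of the difference between lineages were not planned and were added after the data were seen. The p-values of both are to be read with that limit. The members that rose were 8 small subunit, 6 large subunit and 1 stalk gene. Rps12 had 179, 172.6 and 173.6 normalised CPM at E17.5, against 81.85, 83.46 and 124.8 at E14.5, and rose by 0.85 ± 0.19 (adjusted p = 0.00649, edgeR). Rpl23 had 920.7, 861.4 and 662.2 at E17.5, against 387.4, 399.4 and 589.9 at E14.5, a rise of 0.83 ± 0.18 (adjusted p = 0.00786, edgeR). Rps18 had 568.6, 517.9 and 443.2 at E17.5, against 296.4, 279.9 and 396.3 at E14.5, a rise of 0.65 ± 0.13 (adjusted p = 0.0026, edgeR). The third E14.5 set was the highest of its stage in each case and still lay below all E17.5 sets. With library totals alone 14 rose, and the median was 0.28. The count fell to 4 without the second E14.5 set or the third E17.5 set, to 5 without the first E14.5 set and to 6 without the first E17.5 set.

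The test of the difference between lineages, E17.5 over E14.5 in cholangiocytes minus the same in DLK+ cells, called 0 members, with 0 also below an unadjusted p of 0.05, where 1.1% of all genes were called higher and 2.11% lower by edgeR. The member median was 0.07 and that of all genes 0.04. Rplp0 differed by 0.25 ± 0.13 (adjusted p = 0.371, edgeR) and Rpl38 by -0.42 ± 0.23 (adjusted p = 0.392, edgeR). With library totals alone 60 members were called higher, with a median of 0.81 against 0.76 over all genes.

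Between EpCAM+ and DLK+ cells typed as hepatoblasts at E11.5 to E14.5, edgeR's quasi-likelihood test called 0 members, where 0.0238% of all genes were higher and 0% lower. At an unadjusted p below 0.05, 30 members were lower, 78 of 79 estimates were below 0 and the median was -0.14 against -0.02 over all genes. Rpl7 differed by -0.22 ± 0.07 (adjusted p = 0.634, edgeR) and Rplp0 by -0.16 ± 0.05 (adjusted p = 0.674, edgeR). The summed share was 0.898 times that of DLK+ cells and stayed between 0.863 and 0.917 times on the other scales. No gene of any accompanying list was called.

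In explants the comparisons were among EpCAM+ cells typed as cholangiocytes. Set sums were 4.31 and 4.04% with TPPB, 3.35 and 2.63% with TPPB and U0126, 2.95 and 2.86% with U0126, and 2.17, 3.55 and 3.66% in controls, of which the lowest came from 3 cells. Plasma protein and marker genes took 1.77 and 1.98% of the reads with TPPB, against 9.76 to 19.8% in controls. The hepatoblast markers took 0.0633 and 0.241% with TPPB, against 5.91 to 13.4% in controls, and the cholangiocyte markers 1.5 and 1.77%, against 0.0594 to 0.761%, with all 5 and all 6 markers detected in both groups.

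With TPPB, 0 members were called and 0 had an unadjusted p below 0.05, where 0.115% of all 13881 genes rose and 1.75% fell by edgeR. The median member changed by -0.07 against 0.13 over all genes, and with library totals alone by 0.54 against 0.75. Rpl10 had 556.2 and 400 normalised CPM with TPPB, against 675.2, 745 and 679.8 in controls, a change of -0.57 ± 0.33 (adjusted p = 0.489, edgeR). With the deposit round in the fit, TPPB was in effect set against the first and second control sets, the first of 3 cells. In cells of the DLK+ gate the share was 1.81% with TPPB and 2.34% in the control, with 1 sum each and no test.

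With U0126, 0 members were called and 0 had an unadjusted p below 0.05, where 0% of genes were called in either direction by edgeR, although all 79 estimates were below 0 and the median was -0.37 against 0 over all genes. With TPPB and U0126 against U0126 alone, 0 members were called, 0 had an unadjusted p below 0.05 and 0% of genes were called, with a median of 0.26 and 74 estimates above 0. The U0126 cells come from sets 3 and 4 and the TPPB cells from sets 1 and 2, and controls are in both, so with the deposit round in the fit U0126 was in effect set against the third control set alone. Without that term the median for U0126 was -0.23, and 0 members were called. The explant fit for TPPB recovered none of the changes put into simulated data, although it called genes in the real data. The simulation may therefore not match these data, and the other treatments were not simulated. With so few set sums for each treatment, the absence of calls in explants carries little weight. A p above the threshold does not show that the treatments act alike.

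**Figure D5:**
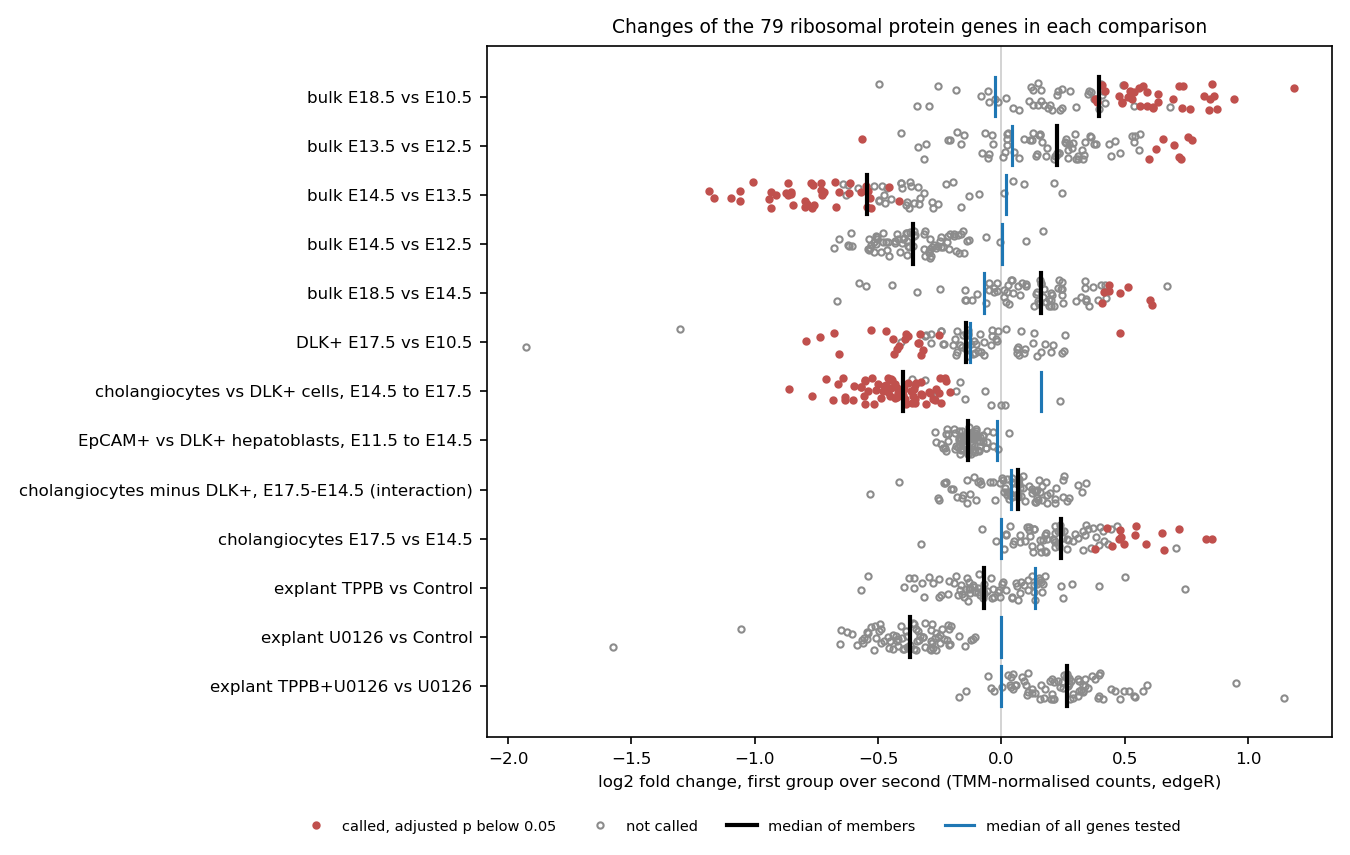
Log2 fold change of each of the 79 members, first group over second, in every comparison on the TMM scale, with called members (adjusted p below 0.05) filled, black bars for the median member and blue bars for the median of all genes tested. Of 79 members, 41 were lower in E14.5 against E13.5 and 67 in cholangiocytes against DLK+ cells; with library totals alone the family's direction reverses for E18.5 against E10.5, E18.5 against E14.5, cholangiocytes against DLK+ cells and TPPB against Control.

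Some members cannot be separated from near copies. Of the 79, 7 have at least 1 other gene with 97% identity over 80% of the coding sequence, with 14 for Rps2. Where no coding sequence is annotated, the transcript was used. Rps3a2 and Rps3a3 are annotated as processed pseudogenes of Rps3a1. In bulk cells Rps3a1 had 725.2 and 578 normalised CPM and Rps3a3 49.83 and 207.8 at E18.5. The library with more of the parent gene thus had less of the copy. Rps3a3 took 6.43 and 26.4% of the reads of both rows in these libraries. Rps3a3 had estimates of -1.57 ± 1.60 with U0126 against controls (adjusted p = 1, edgeR) and of -1.30 ± 1.18 in DLK+ cells at E17.5 against E10.5 (adjusted p = 0.445, edgeR). The E17.5 DLK+ sets had 0.491, 0, 100.2 and 109.6 normalised CPM, against 142.5, 117.1 and 124.3 in the E10.5 sets. Rows with a pseudogene suffix numbered 246 and held 0.0200 to 0.0619% of bulk reads.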

How the data were processed

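Per the submitters' processing notes, TopHat2 2.1.0, Bowtie2 and HTSeq 0.6.0 were used on GRCm38 (mm10). The deposited read counts per gene carry no normalization by the authors, and the gene length beside them, another deposited value, gave per-length levels here. Deposited TPM tables were not used. The 92 ERCC rows were left out of library sizes.

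Cells of a group and set were summed (at least 2 cells). The test on counts was that of edgeR 4.0.16 under R 4.3.3 (quasi-likelihood, TMM, filterByExpr with a minimum count of 10) and Benjamini-Hochberg adjustment over all genes, called below 0.05. Bulk libraries were fitted with stage, embryo sums with group, and explant sums with treatment and deposit round. Levels are normalised CPM, and SE is the change over the square root of F. Fits were checked on simulated data. There the bulk and embryo fits recovered part of the changes put in, and the explant fit, tried for TPPB alone, none. Alternatives used DESeq2 1.42.0, other scales, filters and left-out sets. Positions and GC are from GENCODE M21, near copies from BLAST+ 2.17.0+, start sites from RefSeq.

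Members, lists and tests were chosen with earlier results of these data known. The comparison of E17.5 with E14.5 within cholangiocytes and the test of the difference between lineages were added after the data were seen. In each comparison the 5 called members with the largest rise and fall are the pool for naming, or the 5 with the smallest p where fewer than 5 were called, and a selection is given, with some members not reported here. Whether set numbers pair samples is not stated. Deviations of same-numbered samples correlated at -0.29 to 0.31 in bulk and -0.13 to 0.15 in cells, and the main fits did not treat them as pairs. The highest values, 0.31 and 0.30, were for E13.5 against E12.5 and E14.5 against E13.5. With 2 libraries a stage each is a single value and cannot decide on pairing. Rps3a3 reads followed set number across gates at some stages.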

Additional observations from a re-analysis of the deposited data

Results flagged for a closer look

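Among DLK+ cells of E17.5, the fourth set had 0.963 member reads per ERCC read, against 1.84 to 1.93 in the other 3 sets, and so stood apart from its group. Of 16 groups of values examined in this way 1 had such a set, and chance marks about 1 in 20. Its summed share of reads, 1.73%, lay near the 1.78 to 2.09% of the other sets.

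The summed share moved in opposite directions in the lineages. It was higher by 0.595 percentage points at E17.5 than at E14.5 in cholangiocytes, with 2.54 to 3.14% at E17.5 against 2.06 to 2.47% at E14.5, while DLK+ cells had 1.73 to 2.09% at E17.5 against 2.47 to 2.82% at E14.5. With TMM scaling the summed level was higher at E17.5 than at E14.5 in both lineages. It was 29548 to 35670 against 26451 to 28094 normalised CPM in DLK+ cells. In cholangiocytes it was 22832 to 25291 against 17819 to 22581. The opposite directions thus hold for the share of reads alone. The difference between lineages was not tested on shares, and the test per gene called 0 members.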

How the results depend on the processing

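Ratios of summed shares depended on the scale. For E18.5 over E10.5 the ratio of 0.486 became 0.680 without plasma and marker genes, 0.386 in TPM and 1.30 with TMM, and for E18.5 over E14.5 0.568 became 1.13 with TMM. For DLK+ E17.5 over E10.5 (0.410) the values were 0.561, 0.373, 0.911 and, per ERCC read, 0.774. For cholangiocytes over DLK+ cells (1.12) they were 0.978 without plasma and marker genes, 0.766 with TMM and 0.651 per ERCC read. Per ERCC read, cholangiocytes of E17.5 over E14.5 gave 1.96 (1.27) and U0126 over control 0.358 (0.930), and TMM gave 0.909 for TPPB over control (1.34).

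With library totals the counts of called members became 75, 11, 76, 78, 27 and 60 for E18.5 against E10.5, E14.5 against E12.5, E18.5 against E14.5, DLK+ cells, cholangiocytes against DLK+ cells and the interaction. Reversed were Rpl28 (-0.24), Rpl10 (-0.48), Rps18 (-0.56) and Rps29 (-0.57) at E18.5 against E10.5, Rps4x (-0.37), Rps3 (-0.38) and Rpl10 (-0.48) at E18.5 against E14.5, Rpl10 (-0.67) in DLK+ cells, Rpl38 (0.33) in the interaction and Rpl10 (0.0450) with TPPB.

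Without the filter, 16, 6, 4 (1 higher and 3 lower) and 7 members were called for E18.5 against E10.5, E14.5 against E12.5, E18.5 against E14.5 and cholangiocytes of E17.5 against E14.5. DESeq2 called 17 for E13.5 against E12.5, 22 for E14.5 against E12.5, 14 for E18.5 against E14.5 and 25 within cholangiocytes. Removing GC trends gave 3, 20 and 1 for E13.5 against E12.5, E14.5 against E13.5 and E14.5 against E12.5, and with a replicate block besides 1 and 15 for the first and second of these. Fits on only the 4 libraries compared gave 0, 0 and 0 for E13.5 against E12.5, E14.5 against E13.5 and E18.5 against E14.5. Within cholangiocytes sums of at least 5 cells gave 4 and spike-in scaling 0, which also gave 3 in DLK+ cells. The causes were not tested.

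With a replicate block the counts in bulk were 33, 9, 39, 0 and 6. They were 21, 69, 0, 0 and 17 in embryo cells and 0 in explants. The main fits did not treat same-numbered samples as pairs, although correlations reached 0.31 in bulk and Rps3a3 reads followed set number at some stages.

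Leaving out each library in turn gave 6 to 26 calls for E18.5 against E10.5, 1 to 20 for E13.5 against E12.5, 17 to 36 for E14.5 against E13.5, 0 to 30 for E14.5 against E12.5 and 0 to 4 for E18.5 against E14.5. It gave 11 to 23 in DLK+ cells, 65 to 71 for cholangiocytes against DLK+ cells and 4 to 20 within cholangiocytes, refitted with the trended dispersion of all sums, and 0 elsewhere. Ratios ran from 0.447 to 0.526, 1.00 to 1.19, 0.579 to 0.770, 0.636 to 0.845 and 0.498 to 0.662 in the bulk order above. They ran from 0.395 to 0.422 in DLK+ cells, 1.10 to 1.15 for cholangiocytes, 1.2 to 1.35 within cholangiocytes, 0.876 to 0.917 for EpCAM+ hepatoblasts, 1.16 to 1.46 for TPPB, 0.807 to 1.02 for U0126 and 0.905 to 1.15 for both agents. U0126 against control without the third control set could not be fitted.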

Other observations

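Rps3a1 and its near-identical copy Rps3a3 shared their reads in 3 separate ratios among single cells, a pattern noticed in the data with bands set after seeing the values. Rps3a3 took under 1% of the reads of both rows in 150 of 529 cells, 12.7 to 29.7% in 246 cells and 37.3 to 53.1% in the others, apart from 7 cells at 1.27 to 8.42%, with 102 reads or more behind every cell. Within E10.5 DLK+ cells, Rps3a1 had a median of 676 CPM in the 9 cells of the lowest band, 531 in the 19 of the middle band and 342 in the 23 of the highest, while both rows together had 678, 683 and 598 CPM.

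At some stages the bands followed set numbers across gates. At E17.5 all 14 and all 8 cells of DLK+ sets 1 and 2 and all 15 cells of cholangiocyte set 1 were in the lowest band, and all cells of sets 3 and 4 in both gates were in the middle band. At E14.5 no cell of the third set was in the lowest band in either gate, whereas all 3 cells of DLK+ set 2 were. Elsewhere gates differed within a set number. In E13.5 set 2, 10 of 18 DLK+ cells were in the lowest band, against 0 of 9 EpCAM+ hepatoblasts. In E15.5 set 4, 15 of 19 DLK+ cells were in the highest band, against 3 of 10 cholangiocytes. In bulk libraries the copy's part ran from 6.43 to 29.6%. What sets the bands was not tested.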
